A study of Oncorhynchus mykiss with 15 samples.

Results

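The microRNAs miR-103 and miR-107 were followed in the liver of rainbow trout (Oncorhynchus mykiss) under hypoxia and reoxygenation. The members were all rows of the deposited small RNA table that are named for salmon (prefix ssa) and are numbered as miR-103 or miR-107, both arms included. There were 4 such rows among 313 salmon-named rows and 1213 rows in all: ssa-miR-103-3p, ssa-miR-103-5p_R-1, ssa-miR-107-3p and ssa-miR-107-5p. Wild-type fish formed 5 groups of 3 libraries each: control fish, fish sampled after 3 h, 12 h or 24 h of hypoxia, and fish sampled after 3 h of reoxygenation. The labels do not give the oxygen levels or the duration of hypoxia before reoxygenation. The values are levels that the authors normalized and rounded to whole numbers on an unstated scale, and the reads behind each one are unknown.

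A microRNA is cut from a hairpin precursor as a duplex, from which one strand, the 5p or the 3p arm, is mostly kept and guides silencing of messenger RNAs through its seed, the bases near its 5′ end. miR-103 and miR-107 are paralogs with the same seed in their 3p arm, and in human and mouse they lie in introns of pantothenate kinase genes, which encode the first enzyme of coenzyme A synthesis. In mice, raised miR-103 and miR-107 lower the insulin sensitivity of liver and fat, and caveolin-1 is a known target. In human cells miR-107 has been tied to hypoxia signalling through the partner subunit of HIF-1.

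The sequences below, copied from the deposited table, show what the paralogs share and where they part. Capitals mark the seed, bases 2 to 8 counted from 1 at the 5′ end. The last pair consists of forms named for other species.
ssa-miR-103-3p: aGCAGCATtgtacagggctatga
ssa-miR-107-3p: aGCAGCATtgtacagggctatc
ssa-miR-103-5p_R-1: aGCCTCTTtatgatgctgccttg
ssa-miR-107-5p: aGCTTCTTtacagtgttgccttg
cfa-miR-103_R-2: aGCAGCATtgtacagggctat
ola-miR-103_R+4: aGCAGCATtgtacagggctatcatt
With miR-103 as the reference, the 3p arms differed by the single substitution G22C over the 22 bases they can be compared on, and miR-107-3p ended there, 1 base earlier. The seed was the same. The 5p arms, both 23 bases long, differed by C4T, T11C, G12A, A13G and C16T, and the first of these lies in the seed. So the 3p arms share 1 seed and the 5p arms have 2.

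All 7 rows of the table with the seed GCAGCAT at bases 2 to 8 were named miR-103 or miR-107, and they held 5 distinct sets of values. The row pal-miR-103b-3p repeated the values of ssa-miR-103-3p, and gmo-miR-103-3p_R-1_1ss22GC, called a miR-103 in its name, repeated the sequence and the values of ssa-miR-107-3p. The 21-base row cfa-miR-103_R-2 stops before base 22, so it can come from either paralog. It averaged 232 over the 15 libraries. The row ola-miR-103_R+4 carries G22C, as miR-107-3p does, in a form of 25 bases, and it averaged 2.73. The 5p seeds each occurred in 1 row only.

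The 3p arms were far more abundant than the 5p arms. ssa-miR-107-3p averaged 5882 ± 1475 (SD, n = 15 libraries), 0.168% of the library total, and held rank 45 of 1019 distinct sets of values. ssa-miR-103-3p averaged 1822 ± 561, 0.0506% of the total, at rank 90. The 5p arms were minor: ssa-miR-107-5p averaged 150 ± 82.2 at rank 256, and ssa-miR-103-5p_R-1 averaged 18.2 ± 15.2 at rank 515. The 2 main 3p rows made up 95.05% to 98.12% of the summed level of the seed in each library. All 4 members had a mean of at least 10 and entered the tests.

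The libraries differed in ways that touch these values. Library totals, counting repeated sets of values once, lay between 2090585 and 6181106. miR-122, the defining miRNA of hepatocytes, took 21.5% to 60.2% of a library, as the labelled tissue would hold. Its share was 55.7% to 60.2% at 12 h of hypoxia, 25.2% to 59.0% at 24 h and 26.5% to 57.2% after reoxygenation, against 24.7% to 33.6% in control. Of the 2 libraries that stood furthest from their groups, library 1 of reoxygenation differed from the others by an SD of 2.92 and 2.98 on the log2 scale and library 1 of 24 h hypoxia by 2.25 and 2.14. Control library 1, which enters every comparison with control, differed from the other 2 by 1.92 and 1.79, more than any pair of the 3 h or 12 h groups. No label says that the libraries of a group came from separate fish, so the p-values reflect sample-to-sample spread, which may be technical. In bulk liver, fewer cells of a type and less RNA per cell cannot be told apart.

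The principal form of miR-103, its 3p arm, was highest at 24 h of hypoxia and lowest at 3 h. ssa-miR-103-3p was at 2368, 1201 and 1023 in control, 899, 1535 and 1059 at 3 h of hypoxia, 2356, 1872 and 2073 at 12 h, 2623, 2432 and 2089 at 24 h, and 2145, 1940 and 1713 after reoxygenation. Control library 1 was high and sat among the late groups, and the other 2 controls lay below every library of 12 h, 24 h and reoxygenation. Group means were 1531 ± 731 (control), 1164 ± 331 (3 h), 2100 ± 243 (12 h), 2381 ± 271 (24 h) and 1933 ± 216 (reoxygenation; SD, n = 3 each). In the order of the means, 24 h stood above 12 h by 281, slightly more than their pooled SD of 257, and no other neighbours differed by more than 1 SD.

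Against control the change of ssa-miR-103-3p, on the log2(value + 1) scale, was -0.33 ± 0.35 (SE) at 3 h, 0.55 at 12 h, 0.73 at 24 h and 0.43 in the reoxygenation group, none of which passed in limma. The adjusted p, by Benjamini-Hochberg over all tested rows in limma, were 0.995, 0.317, 0.369 and 0.552. The 95% interval of the change at 24 h ran from -0.01 to 1.47, so it spans both no change and a 2-fold difference. Without control library 1 the changes were 0.03, 0.92, 1.10 and 0.80, with limma adjusted p of 1, 0.0634, 0.0735 and 0.184. Without control library 3 they were -0.57, 0.31, 0.49 and 0.19, with limma adjusted p of 0.913, 0.668, 0.737 and 0.868. Scaled to the library total, in which miR-122 weighs heavily, the change at 12 h was -0.47, against 0.24 where miR-122 was removed from the total. On that first scale it was 0.33 at 24 h and 0.02 in the reoxygenation group. No direction is therefore given for it at 12 h. The median of all rows there was -0.20 on the deposited scale, -1.19 scaled to the library total and -0.50 with miR-122 removed from the total. ssa-miR-103-3p lay above that median on each of these scales.

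**Figure D1:**
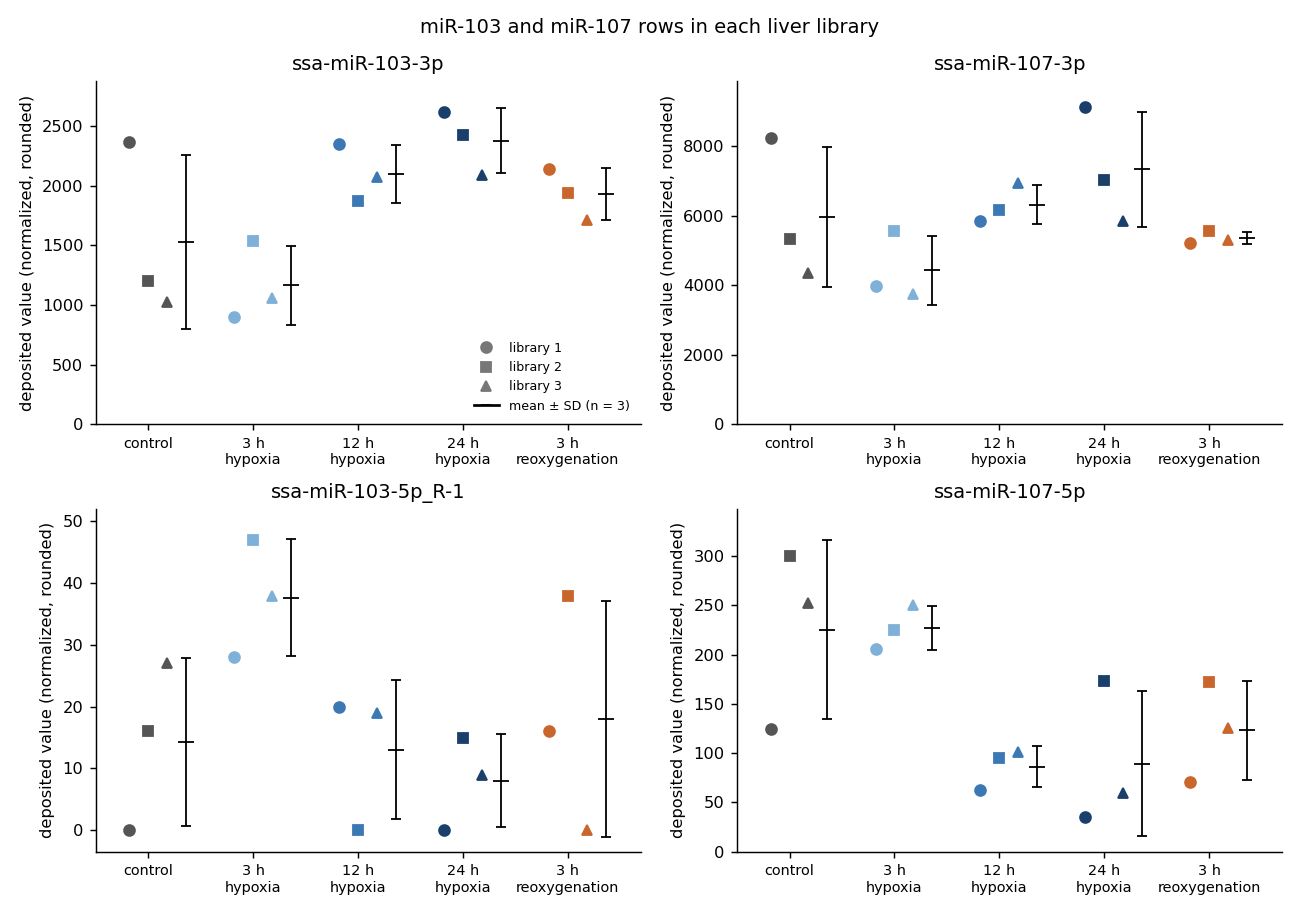
Deposited value (normalized and rounded by the authors, y axis) of the 4 miR-103 and miR-107 rows in each library, by group on the x axis; markers tell libraries 1 to 3 apart and the bars give the mean and SD of 3 libraries. Control library 1 sits high for both 3p arms (2368 and 8231) and low for ssa-miR-107-5p (124), and the 12 h libraries of ssa-miR-107-5p (63 to 101) lie below all controls.

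The principal form of miR-107, its 3p arm, spanned a narrower range of folds. ssa-miR-107-3p was at 8231, 5342 and 4346 in control, 3978, 5552 and 3740 at 3 h of hypoxia, 5846, 6164 and 6952 at 12 h, 9126, 7041 and 5842 at 24 h, and 5212, 5547 and 5311 after reoxygenation. Again control library 1 was the highest control, and the control range covered all libraries of 12 h and of reoxygenation. Its group means were 5973 ± 2018 (control), 4423 ± 985 (3 h), 6321 ± 569 (12 h), 7336 ± 1662 (24 h) and 5357 ± 172 (reoxygenation; SD, n = 3 each). Of neighbours in the order of the means, only reoxygenation and 3 h of hypoxia, the lowest pair, differed by more than their pooled SD, 933 against 707.

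Against control ssa-miR-107-3p differed by -0.40 ± 0.31 (SE, log2 scale) at 3 h, 0.13 at 12 h, 0.32 at 24 h and -0.11 in the reoxygenation group. The limma adjusted p were 0.995, 0.819, 0.599 and 0.901. The 95% intervals ran from -0.52 to 0.78 at 12 h and from -0.76 to 0.55 after reoxygenation. Scaled to the library total the difference at 12 h was -0.89 (limma adjusted p = 0.0778) and at 24 h -0.08, while a total without miR-122 gave -0.18 and 0.18. The median of all rows at 12 h was -1.19 scaled to the library total and -0.50 with the total without miR-122. Per library total the summed seed took 0.148%, 0.144% and 0.161% at 12 h, against 0.247%, 0.2699% and 0.267% in control. Out of a total without miR-122, the shares were 0.337%, 0.324% and 0.404% at 12 h, against 0.361%, 0.407% and 0.354% in control, where the groups overlap. After reoxygenation the 3 libraries of ssa-miR-107-3p lay below all 3 of 24 h hypoxia, by -0.43 (limma adjusted p = 0.962). Libraries lay lower without overlap in 2.79% of all rows in that comparison.

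The minor arm of miR-107 was lower on average at 12 h, at 24 h and after reoxygenation than in control, and close to control at 3 h. ssa-miR-107-5p was at 124, 300 and 252 in control, 225 and 250 in the higher pair of 3 h libraries, 63, 95 and 101 at 12 h, 35, 173 and 60 at 24 h, and 71 and 172 in the lowest and highest of the reoxygenation libraries. All 3 libraries of 12 h lay below all 3 controls, while library 2 of 24 h and libraries 2 and 3 of reoxygenation exceeded control library 1. Its group means were 225 ± 91.0 (control), 227 ± 22.1 (3 h), 86.3 ± 20.4 (12 h), 89.3 ± 73.5 (24 h) and 123 ± 50.6 (reoxygenation; SD, n = 3 each). In the order of these means, control stood above reoxygenation by 102, more than their pooled SD of 73.6, and no other neighbours differed by more than 1 SD.

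The log2 change of ssa-miR-107-5p against control was 0.10 ± 0.57 (SE) at 3 h, -1.31 at 12 h, -1.55 at 24 h and -0.86 in the reoxygenation group. None passed: the limma adjusted p were 0.995, 0.154, 0.1997 and 0.464. The 95% intervals lay below 0 at 12 h, from -2.52 to -0.10, and at 24 h, from -2.76 to -0.34, before adjustment for the number of rows. Scaled to the library total the changes were -2.32 at 12 h and -1.95 at 24 h (limma adjusted p of 0.0611 and 0.286), and after a correction for GC content -1.52 and -1.44. The median row changed by -0.20 at 12 h and by -0.16 at 24 h on the deposited scale, and by -1.19 and -0.55 when scaled to the library total. Without library 2 of 24 h hypoxia the change at 24 h was -2.18 (limma adjusted p = 0.0779), and without library 1 of that group, one of those standing furthest apart, it was -1.04 (limma adjusted p = 0.4098).

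The minor arm of miR-103 was near the floor of the table. ssa-miR-103-5p_R-1 was at 0, 16 and 27 in control, 28, 47 and 38 at 3 h of hypoxia, 20, 0 and 19 at 12 h, 0, 15 and 9 at 24 h, and 16, 38 and 0 after reoxygenation. Each group other than 3 h held 1 library listed at 0. The 3 h libraries lay above all controls, the lowest of them at 28 and the highest control at 27. Its log2 change at 3 h was 2.28 ± 1.65 (SE, limma adjusted p = 0.995), and without control library 1, which was listed at 0, it was 0.80. In that comparison 1.86% of all rows lay higher without overlap.

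**Figure D2:**
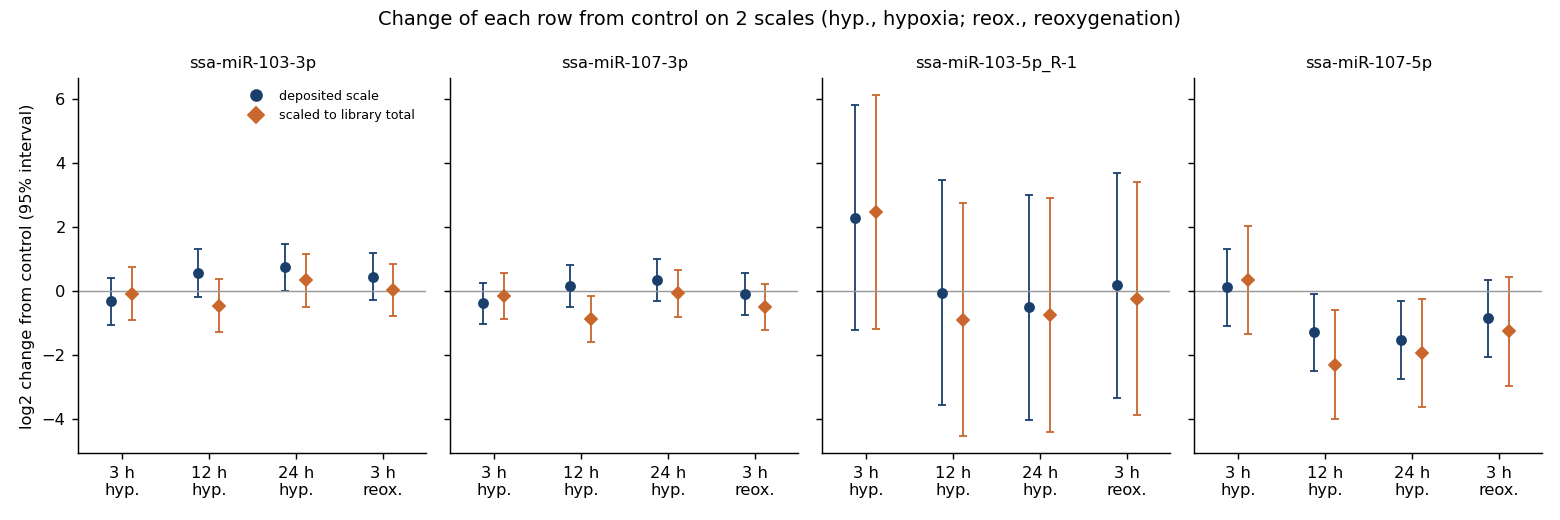
Log2 change from control (y axis, 95% interval from limma) of each row at 3 h, 12 h and 24 h of hypoxia (hyp.) and after 3 h of reoxygenation (reox.), on the deposited scale (circles) and scaled to the library total (diamonds). On the deposited scale the 3p arms lie between -0.40 and 0.73, the widest intervals belong to ssa-miR-103-5p_R-1, and at 12 h the scaled points lie below the others, at -0.47 and -0.89 for the 3p arms.

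Counted together, limma called 0 of the 4 members at 3 h of hypoxia, where 0 of 752 rows were called (0%; 1.73%, 13 rows, had an unadjusted p under 0.05). It called 0 of 4 at 12 h, against 7.18% of all rows, 0 of 4 at 24 h, against 0.665%, and 0 of 4 after reoxygenation, against 2.13%. Between reoxygenation and 24 h of hypoxia it called 0 of 4 and 0% of all rows (3.72%, 28 rows, had an unadjusted p under 0.05). At an unadjusted p under 0.05 stood 1 member at 12 h and 1 at 24 h, ssa-miR-107-5p each time, where 26.7% and 13.3% of all rows did, and 0 at 3 h, between reoxygenation and 24 h, and between reoxygenation and control, where 16% of all rows did. At 12 h, 1 member lay below control without overlap and 0 above, where 23.8% of all rows lay lower and 16.9% higher. These comparisons with control share the same 3 control libraries.

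Over the 5 groups together, limma's moderated F-test gave ssa-miR-107-5p an adjusted p of 0.157, ssa-miR-103-3p 0.172, ssa-miR-107-3p 0.407 and ssa-miR-103-5p_R-1 0.643, against 6.38% of all rows called. Of the 4 members, 2 stood at an unadjusted p under 0.05, where 27.7% of rows did. Without control library 1 the F-test of ssa-miR-103-3p passed, at limma adjusted p = 0.0447, while 85 rows were called in place of 48. In the authors' deposited table, whose test is not named, the p-value was 0.0267 for ssa-miR-107-5p, 0.0299 for ssa-miR-103-3p, 0.123 for ssa-miR-103-5p_R-1 and 0.146 for ssa-miR-107-3p. Of all rows in the authors' deposited table, 230 of 1213 have a p-value under 0.05, and these are not adjusted there.

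Between durations of hypoxia, compared after the values had been seen, the main 3p arms and the 5p arms lay on opposite sides of the 3 h group. ssa-miR-103-3p was above 3 h in all libraries of 12 h and of 24 h, by 0.88 and 1.06 ± 0.35 (SE, log2 scale), 1.84-fold and 2.09-fold. ssa-miR-107-5p was below 3 h in all of them, by -1.41 and -1.65 ± 0.57. ssa-miR-107-3p was above 3 h without overlap by 0.53 and 0.73, and ssa-miR-103-5p_R-1 below without overlap by -2.34 and -2.80.

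None of these differences passed in limma over all rows. At 12 h against 3 h the adjusted p were 0.0891 for ssa-miR-103-3p, 0.0957 for ssa-miR-107-5p, 0.237 for ssa-miR-107-3p and 0.346 for ssa-miR-103-5p_R-1 (limma), where 16.8% of rows were called, 33.9% had an unadjusted p under 0.05, 20.7% lay higher without overlap and 30.1% lower. At 24 h against 3 h they were 0.0867, 0.102, 0.169 and 0.311 (limma), where 4.92% were called, 25.3% had an unadjusted p under 0.05, 13.3% lay higher without overlap and 17.3% lower. Scaled to the library total, the 12 h differences of the 3p arms turned to -0.37 for ssa-miR-103-3p and -0.72 for ssa-miR-107-3p, while that of ssa-miR-107-5p was -2.65 and passed (limma adjusted p = 0.0263). On that scale 224 of 752 rows passed, 207 of them lower, and the median row was at -1.46. At 24 h against 3 h the same scaling gave 0.42 for ssa-miR-103-3p and 0.087 for ssa-miR-107-3p. In the fit on these 2 groups alone, ssa-miR-103-3p and ssa-miR-107-5p both passed at 12 h against 3 h, with limma adjusted p of 0.0343 and 0.0145, where 267 of 752 rows passed. At 24 h against 3 h, ssa-miR-107-5p passed without library 2 of 24 h hypoxia, at -2.28 (limma adjusted p = 0.0381). Of the 6 fits with 1 library left out it passed in that 1 only, with limma adjusted p from 0.0381 to 0.259. These fits called 5 to 39 of all 752 rows.

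The balance between the paralogs, which a scaling factor common to a library does not move, was tilted further to miR-107 in control and at 3 h than later. The ratio of ssa-miR-107-3p to ssa-miR-103-3p was 3.48, 4.45 and 4.25 in control, 4.42, 3.62 and 3.53 at 3 h of hypoxia, 2.48, 3.29 and 3.35 at 12 h, 3.48, 2.90 and 2.80 at 24 h, and 2.43, 2.86 and 3.10 after reoxygenation. miR-107 was the more abundant paralog in all 15 libraries. The ratio of every 12 h and every reoxygenation library was below all controls, the nearest pair being 3.35 at 12 h and 3.48 in control, and at 24 h library 1 overlapped control. For how many other pairs of rows the ratio parts in this way is not given. Single rows at 12 h lay below control without overlap in 23.8% of cases and above it in 16.9%. Another kind of ratio within libraries, minor to major arm, was formed for 75 salmon-named hairpins. It lay below control without overlap in 20 of them at 12 h and 9 after reoxygenation, and above in 15 and 7. The mean log2 ratio was lower than in control by -0.42 at 12 h, -0.41 at 24 h and -0.54 after reoxygenation, and by -0.07 at 3 h, with pooled SD of 0.22, 0.18, 0.18 and 0.18. The GC correction, which acts on each row by its base composition, brought it to -0.18 at 12 h, -0.37 at 24 h, -0.34 after reoxygenation and -0.0087 at 3 h. miR-107 made up 70.8% to 81.6% of the pair. No test was run on this ratio, as it is formed from the chosen rows.

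Within the miR-107 hairpin, the 5p arm was a smaller fraction of the 3p arm at 12 h than at 3 h. It amounted to 1.51%, 5.62% and 5.80% of the 3p arm in control, 5.18%, 4.05% and 6.68% at 3 h of hypoxia, 1.08%, 1.54% and 1.45% at 12 h, 0.384%, 2.46% and 1.03% at 24 h, and 1.36%, 3.10% and 2.37% after reoxygenation. The 12 h libraries all lay below those of 3 h, and control library 1, at 1.51%, lay among the 12 h libraries. At 12 h against 3 h the log2 difference was -1.95, and 25 of 75 salmon-named hairpins (33.3%) had a ratio of minor to major arm that was lower without overlap, with miR-107 at rank 13 from the lowest. On the log2 scale the 5p to 3p ratio differed from control by 0.51 at 3 h, -1.45 at 12 h, -1.89 at 24 h and -0.76 in the reoxygenation group. Without control library 1 the difference was -0.14 at 3 h and -1.40 after reoxygenation. It was -0.43 after reoxygenation without control library 3 or without library 1 of its own group, and -0.46 without control library 2. At 24 h it was -1.20 without library 1 of that group and -2.54 without library 2.

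**Figure D3:**
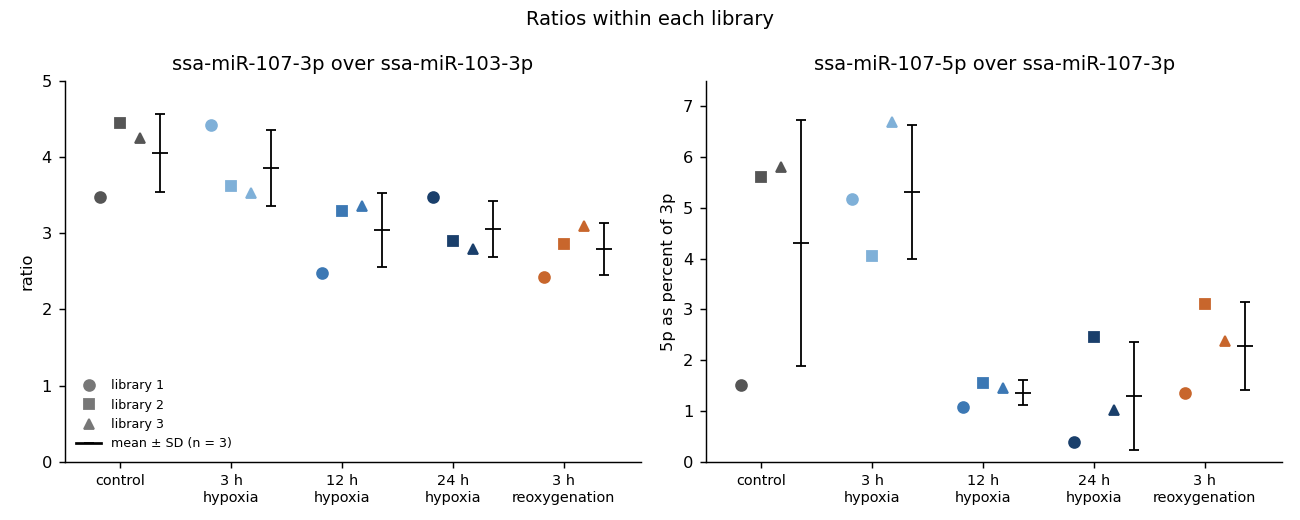
Ratio of ssa-miR-107-3p to ssa-miR-103-3p (left, y axis from 0) and ssa-miR-107-5p as a percent of ssa-miR-107-3p (right) in each library, by group on the x axis, with the mean and SD of 3 libraries. Ratios between the paralogs run from 2.43 to 4.45, and the 5p share is 4.05% to 6.68% at 3 h of hypoxia and 1.08% to 1.54% at 12 h.

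For scale, the ratio of minor to major arm was formed for all 75 salmon-named hairpins whose arms both had a mean of at least 10. At 12 h against control its median change was -0.11 on the log2 scale, and 38 of 75 hairpins were below 0. miR-107, at -1.44, had rank 17 from the lowest and miR-103, at -0.61, rank 31. At 24 h the median was -0.05, and miR-107, at -1.87, had rank 5 and miR-103, at -1.26, rank 12. After reoxygenation they stood at -0.76 and -0.27, ranks 22 and 41, where the median was -0.38. At 3 h miR-103 was the highest of the 75, at 2.61, with its 5p arm listed at 0 in control library 1, and miR-107 was at 0.50.

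**Figure D4:**
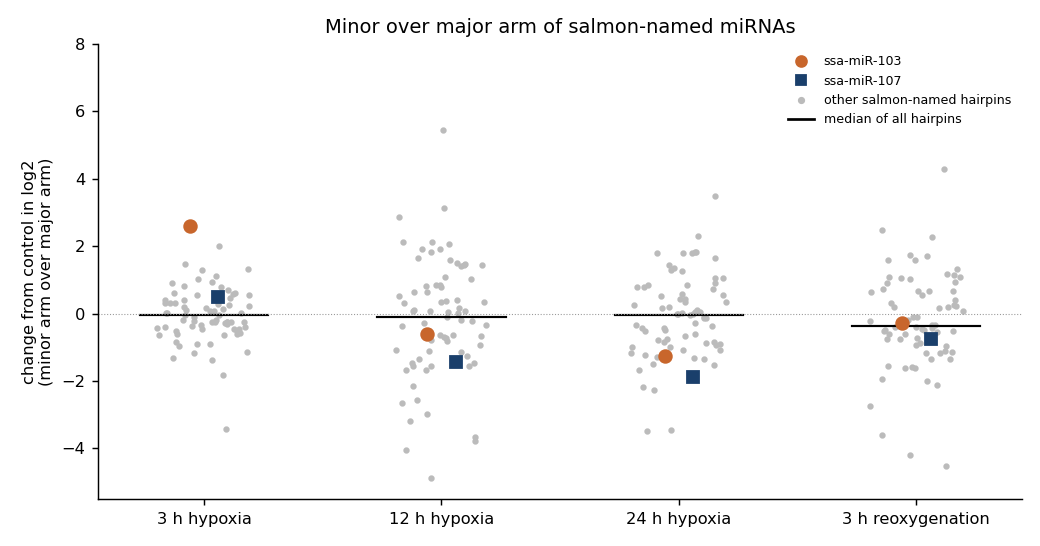
Change from control in the log2 ratio of minor to major arm (y axis) for 75 salmon-named hairpins at each time (x axis); each point is 1 hairpin, the black line is the median of all, and miR-103 (circle) and miR-107 (square) are marked. miR-107 lies at -1.44 at 12 h and -1.87 at 24 h, within the range of the other hairpins.

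miRNAs with a related seed and miRNAs with a metabolic role were set beside them. The miR-15 and miR-16 group carries the letters GCAGCA, with which the miR-103 seed begins, shifted by 1 base, at bases 3 to 8; 18 rows in the table do, none of them named miR-103 or miR-107. The list compared was drawn by number, as miR-15, miR-16 and miR-457 with both arms, and held 27 tested profiles (sets of values). Of these, 15 carry the letters at bases 3 to 8, so counts and medians of the 27 are not those of the related seed alone. At 12 h, 2 of the 27 rose and 0 fell by limma, forms of miR-15a-5p that carry the letters. The form aca-miR-15a-5p_R+2_1ss10AG averaged 347 ± 128 at 12 h and 67.0 ± 6.93 in control (2.29, limma adjusted p = 0.0360). It did not pass per library total, at 1.27 (limma adjusted p = 0.217), or after the GC correction (limma adjusted p = 0.148). The median log2 change of the 27 was 0.20. Among all 622 profiles 30 rose and 14 fell, and the median was -0.19. Per library total, the 27 profiles had a median of -0.80, where the median of all 752 rows was -1.19. At 12 h against 3 h, 4 of the 27 were higher and 4 lower past the threshold in limma, where 55 were higher and 44 lower among all 622. Of those lower, gga-miR-15b-5p_L+1R-1_1ss17GT lacks the letters at bases 3 to 8. ssa-miR-15a-5p_L-2_1ss18GA, a regulator of cell cycle and survival genes, averaged 8599 ± 2901 at 12 h and 2315 ± 660 in control (limma adjusted p = 0.0120), but its change of 1.87 was 0.85 once values were divided by library totals (limma adjusted p = 0.2504). After reoxygenation it was the 1 of 27 that rose, averaging 11068 ± 814 there and 2315 ± 660 in control (2.30, limma adjusted p = 0.00575; 0.0974 per library total). The most abundant of the group, ssa-miR-16a-5p and oni-miR-457, averaged 25589 ± 1077 and 3643 ± 615 at 12 h, against 12250 ± 3367 and 13991 ± 10096 in control, with limma adjusted p of 0.0731 and 0.208.

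Of the metabolic list, which held 52 tested profiles of miR-26, miR-27, miR-29, miR-33, miR-34, miR-122, miR-143, miR-223, miR-338, miR-375 and miR-378, 1 rose and 1 fell at 12 h by limma, with a median log2 change of 0.42 on the deposited scale and -0.57 scaled to the library total. On the deposited scale the median of all 622 profiles was -0.19, and scaled to the library total that of all 752 rows was -1.19. ssa-miR-33a-3p, from the hairpin in a sterol regulator gene, fell to 191.7 ± 48.9 at 12 h, against 609 ± 146 in control (-1.66, limma adjusted p = 0.0241). ssa-miR-29b-3p, known for targeting collagen transcripts, averaged 790 at 12 h and 255 ± 128 in control (1.63 ± 0.46, SE, limma adjusted p = 0.0448), but it did not pass per library total, at 0.62 (limma adjusted p = 0.405), or after the GC correction (limma adjusted p = 0.307). Against control, 0 of the 52 passed in limma at 3 h, at 24 h or in the reoxygenation group, where 0, 5 and 15 of all 622 did. The most abundant forms of the other metabolic numbers, tni-miR-27c, ssa-miR-33b-3p, ssa-miR-29b-2-5p_L-2, ssa-miR-26a-5p, gmo-miR-34-5p, ssa-miR-122-5p_R-1, ssa-miR-143-3p_R+1, ola-miR-223_R+2, ssa-miR-338a-3p_R-1, ssa-miR-375-3p and cgr-miR-378-3p, did not pass at 12 h, at log2 differences from -3.19 for cgr-miR-378-3p to 1.97 for ssa-miR-122-5p_R-1. ssa-miR-210-5p, an arm of the classical hypoxia miRNA of mammals, averaged 5432 ± 789 at 12 h and 4409 ± 801 in control (0.31, limma adjusted p = 0.6004). The log2 ratio of the minor arm, ssa-miR-210-3p, to this arm changed from control by -0.93 at 12 h and -0.86 at 24 h. At 12 h it was lower without overlap, where 20 of 75 salmon-named hairpins were, and at 24 h the groups overlapped. The level of the 3p arm by itself is not given, so the 5p arm does not stand for both.

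The profiles most like each 3p arm were sought by Pearson's r of log2(value + 1) over the 15 libraries, among 617 other profiles. For ssa-miR-103-3p they were PC-5p-3254_1025 (r = 0.92), ssa-miR-27a-2-5p (0.92), ola-miR-192-3p_R+1_1ss11CA (0.88), ssa-miR-192b-5p (0.88) and ssa-miR-22a-3p (0.88), and ssa-miR-107-3p came next at 0.85. For ssa-miR-107-3p no other profile came above ssa-miR-103-3p, and ola-miR-22_R+1 (0.84), ssa-miR-22a-3p (0.79), ola-miR-199a-3p_R+1_1ss22AT (0.77), ssa-miR-10b-5p (0.77) and ola-miR-192-3p_R+1_1ss11CA (0.76) followed. The libraries share their scaling and control library 1 is high in both arms, so these are descriptions. Scaled to the library total, the r between the paralogs was 0.78, with 13 profiles closer to ssa-miR-103-3p and 55 closer to ssa-miR-107-3p. There the nearest to ssa-miR-103-3p were mmu-mir-6240-p5_1ss19GT_1, ola-miR-192-3p_R+1_1ss11CA, mmu-mir-6240-p5_1ss20GT, ssc-miR-30a-3p_R+2 and ccr-mir-192-p3 (0.87 to 0.92), and the nearest to ssa-miR-107-3p were ssa-miR-1338-5p_R+1_1ss1AT, ssa-miR-128-1-5p_R-2_1ss12CT, ssa-miR-199a-5p, ssa-miR-30a-4-3p and ssa-miR-456-3p_1ss22AT (0.87 to 0.90).

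Markers of liver cell types were summed as shares of the library total, which miR-122 dominates, and as deposited values. The hepatocyte list (miR-122, miR-192 and miR-194, all 3 with rows) took 57.0% to 61.4% of the library at 12 h and 26.3% to 35.0% in control. miR-122 alone took 55.7% to 60.2% at 12 h and 24.7% to 33.6% in control. The list's sum is therefore nearly that of miR-122 and does not describe miR-192 and miR-194. The endothelial miR-126 took 0.718% to 0.851% at 12 h and 0.203% to 0.416% in control. Red blood cell miRNAs (miR-451, miR-144 and miR-486) took 0.0897% to 0.129% at 12 h and 0.0749% to 0.383% in control, and white blood cell miRNAs (miR-142, miR-150, miR-155 and miR-223) 0.0564% to 0.0828% and 0.0912% to 0.255%. As deposited values, the sums at 12 h and in control were 41161 to 49088 and 5052 to 18228 for the endothelial list, 5145 to 7436 and 3010 to 8008 for red blood cells, and 3254 to 4772 and 3998 to 5333 for white blood cells, so the white blood cell list overlaps on this scale and not as shares. Their part in the differences of the miR-103 and miR-107 rows was not tested.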

How the data were processed

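Small RNA libraries were made from total RNA of trout liver extracted with Trizol, per the labels' protocols. The deposited table gives 1 score per row and library, a level that the authors normalized and rounded to whole numbers; its file name calls it TPM, but library totals differ. The sources used here do not state the aligner, annotation, build or filters. Median-of-ratios size factors computed from it ran from 0.972 to 1.06. The deposited p-value column is from a test the authors do not name and is quoted only. Depth is unknown, so no counting interval is given.

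Rows with a mean of at least 10 (752) were fitted as log2(value + 1) with limma 3.58.1 in R 4.3.3, trended variance, 5 groups in 1 fit, Benjamini-Hochberg adjustment within each comparison and a threshold of 0.05. Fold changes are on that scale, and those of low rows depend on the added 1 and on single zeros. For ssa-miR-103-5p_R-1 at 3 h against control the log2 change was 2.28, and 1.14 with 10 added in place of 1. The fit was tested on simulated data. Members, lists and tests were chosen with earlier results of these data known. Named were all members, related rows, the 5 profiles most alike to each 3p arm, and the list members that passed against control or were most abundant. Except for gga-miR-15b-5p_L+1R-1_1ss17GT, list members that passed only between durations of hypoxia were not named for it. miR-370, miR-802, miR-195, miR-424, miR-497, miR-503 and miR-646, also on the lists, matched no tested row. Comparisons between durations and alternatives for the ratios were added after seeing the data. Stromal, muscle and epithelial marker sums were computed and are given under other observations. Alternatives tried were another pseudocount and filter, other scalings, a GC correction, forms summed, the compared groups alone, a replicate block and libraries left out.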

Additional observations from a re-analysis of the deposited data

Results flagged for a closer look

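All libraries of ssa-miR-107-3p lay on 1 side of the control mean in some groups and on the other side in others, on the log2(value + 1) scale. Its change from control at 12 h of hypoxia exceeded that at 3 h by 0.53, and its change at 24 h exceeded that at 3 h by 0.73. After reoxygenation its change was below that at 12 h by -0.24 and below that at 24 h by -0.43. These opposite directions are set against the mean of 3 controls, of which library 1 was far above the others. The first 2 of these differences had limma adjusted p of 0.237 and 0.169 and the last 0.962; that between reoxygenation and 12 h was not tested. No group has enough libraries for a check of single outliers. Without control library 1 the changes of ssa-miR-107-3p at 12 h, at 24 h and after reoxygenation were 0.39, 0.58 and 0.15. With the GC correction they were 0.58, 0.44 and 0.24. So these groups shared 1 sign there, while 3 h was at -0.15 and -0.38. The side at 12 h also depends on the scale. The change of ssa-miR-107-3p from control at 12 h was 0.13 on the deposited scale and -0.89 scaled to the library total. With miR-122 left out of the total it was -0.18. The share of all rows that lie on opposite sides in this way is not given.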

How the results depend on the processing

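Of 348 results of the members under other settings, 328 kept direction and side of the threshold, 14 turned direction and 6 newly passed; with 1 library left out these were 211, 15 and 2 of 228. The cause of the changes was not tested. Scaled to the library total, ssa-miR-103-3p was at -0.47 at 12 h against control and -0.37 against 3 h, ssa-miR-107-3p at -0.89 and -0.72 there and -0.081 at 24 h against control, and ssa-miR-103-5p_R-1 at -0.25 after reoxygenation. With miR-122 left out of the total, ssa-miR-107-3p was at -0.18 at 12 h against control and -0.00056 against 3 h, and ssa-miR-103-5p_R-1 at -0.040 after reoxygenation. With the GC correction, ssa-miR-103-5p_R-1 was at 0.15 at 12 h and ssa-miR-107-3p at 0.24 after reoxygenation, and the log2 ratio of the paralogs at -0.18 at 12 h, -0.34 after reoxygenation and 0.028 between reoxygenation and 24 h, and the log2 ratio of the miR-107 arms at -2.49 at 12 h against 3 h. With the first library left out of both the 24 h and the reoxygenation group, ssa-miR-103-5p_R-1 was at 0.70 at 24 h, -0.32 after reoxygenation and -1.02 between these, and the log2 ratio of the paralogs differed by 0.065 between reoxygenation and 24 h.

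Newly passing, at 12 h against 3 h, were ssa-miR-103-3p (0.88) and ssa-miR-107-5p (-1.41) in the fit on these groups alone, and ssa-miR-107-5p scaled to the total (-2.65) or without the 2 libraries above (-1.41, limma adjusted p = 0.0386). In that comparison the main fit called 16.8% of all rows, and 224 of 752 rows passed scaled to the total. The count of all rows without the 2 libraries is not given for it. The replicate numbers were not taken as pairs. Of 30 same-numbered pairs, 11 had a correlation over 0.1, and 8 of 15 libraries were closest to their own number. The median correlation was 0.022 for same-numbered pairs and -0.012 for 60 pairs of unlike number. Between 24 h and reoxygenation, same-numbered pairs stood at 0.53, 0.35 and -0.030, and pairs of unlike number from -0.549 to 0.425. With the replicate block, 70 rows were called at 12 h, 7 at 24 h, 19 after reoxygenation and 0 at 3 h. Between reoxygenation and 24 h, 0 rows were called, and 53 by the F-test. In that fit ssa-miR-107-5p passed at 12 h against 3 h (-1.41, limma adjusted p = 0.0450) and at 24 h against 3 h (-1.65, limma adjusted p = 0.0483). The main fit called 16.8% and 4.92% of all rows in these 2 comparisons. The shares with the block are not given for them.

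The count of called rows at 12 h, 54, was 18 with the GC correction, 121 with the compared groups alone, 20 per total without miR-122 and 162 without the 2 libraries; scaled to the total, 7 were higher and 64 lower, in place of 39 and 15. At 24 h, 5 became 9 with the GC correction, 12 with forms summed, 10 with a pseudocount of 10 and 51 without the 2 libraries. After reoxygenation, 16 became 0 with the compared groups alone and 76 without the 2 libraries. The F-test's 48 became 27 with forms summed, 28 per total without miR-122 and 183 without the 2 libraries. With 1 library left out, counts ran from 4 to 109 at 12 h, 0 to 30 at 24 h, 4 to 56 after reoxygenation and 18 to 98 for the F-test.
With 1 library left out, the range was -0.57 to 0.034 for ssa-miR-103-3p at 3 h, -0.073 to 0.39 for ssa-miR-107-3p at 12 h and -0.31 to 0.15 after reoxygenation, and -0.28 to 0.35 for ssa-miR-107-5p at 3 h, all against control. For ssa-miR-103-5p_R-1 it was -1.54 to 1.39 at 12 h, -2.01 to 0.70 at 24 h and -1.32 to 1.72 after reoxygenation against control, and -0.54 to 2.25 between reoxygenation and 24 h. For ssa-miR-107-5p at 24 h against 3 h it was -2.28 (without library 2 of 24 h) to -1.14, and for the log2 ratio of its arms at 3 h against control -0.14 to 0.84. The limma adjusted p of the F-test of ssa-miR-103-3p was 0.0447 without control library 1, to 0.342.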

Other observations

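The remaining marker sums were as follows. Stromal and smooth muscle miRNAs (miR-143, miR-145, miR-199 and miR-214) took 1.76% to 2.08% of the library at 12 h of hypoxia and 2.88% to 5.73% in control. Skeletal and heart muscle miRNAs (miR-1, miR-133, miR-206 and miR-499) took 0.0262% to 0.0612% at 12 h and 0.0143% to 0.0261% in control. Epithelial and bile duct miRNAs (miR-200, miR-141, miR-429, miR-203 and miR-205) took 0.108% to 0.1197% at 12 h and 0.249% to 0.442% in control. As deposited values, the stromal sums were 100756 to 120217 at 12 h and 94115 to 142720 in control, so this list overlaps on that scale. The muscle sums were 1500 to 3532 at 12 h and 510 to 651 in control, and the epithelial sums 6238 to 6897 and 9240 to 10926. The 21-base form cfa-miR-103_R-2, which either paralog can give, averaged 243 ± 23.5 at 12 h of hypoxia, 340 ± 227 at 24 h and 229 ± 29.7 after reoxygenation, with control at 177 to 204 (SD, n = 3 each), and library 1 of 24 h hypoxia was its highest, at 602. dre-miR-107b_R-1, a 20-base form with A20T against miR-103-3p, reached 10 at most and was listed at 0 in every library of the 3 h hypoxia and reoxygenation groups.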
